A study of Mus musculus with 4 samples.

Results

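The 272 genes described here are the mouse zinc finger genes that carry the symbol Zfp and a number and that were read at a usable depth in cultured oligodendroglial cells. The table of the study lists 375 such entries among 53465 genes. Members were chosen by their raw counts, of which each of the 4 libraries had to hold at least 100, and Zfp488, Zfp365 and Zfp536 were left out by rule. Of the 103 entries that are no members, 3 are those symbols, and of the other 100 entries 59 were still deep enough to enter the test across all genes and 17 had no count in any library. Zfp276, the gene that the study deleted, is one of the members and is placed here among its relatives.

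RNA-Seq was performed on primary mouse oligodendroglial cultures (1° OGCs) from the forebrain of pups at postnatal days 2 to 4, kept under differentiating conditions for 3 days (3ddiff) after shake-off and microglia depletion. The 2 ctrl libraries carried Zfp276 flox/flox alone. The 2 Zfp276cko libraries carried Sox10::Cre tg; Zfp276 flox/flox, so that both genotypes share the floxed alleles and differ in the Cre transgene. Each library came from a separate preparation that pooled 3 mice. According to the methods, mice for such cultures also carried a Rosa26 stopfloxtdTomato allele, which is not in the labels. Recombination is driven by Sox10, a gene of the oligodendroglial lineage, so other cells of a culture keep the full gene. The paper also describes incomplete deletion, by Zfp276 staining of spinal cord, and sees it mirrored in its RNA-Seq value. It found no Zfp276 staining in astrocytes, neurons or microglia. Which cells the remaining reads of Zfp276 come from was not tested. In these bulk samples, fewer cells of a type and less RNA per cell cannot be told apart. The deposited values are raw counts of reads per gene, which summed to between 21068322 and 26599809 per library. Values below are normalized counts, scaled with TMM to the average library, unless another scale is named.

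Zinc finger proteins of the C2H2 type fold around a zinc ion that is held by a pair of cysteines and a pair of histidines, and successive fingers read successive bases of DNA. In the largest subfamily a KRAB domain at the N-terminus recruits Trim28 and with it the histone methyltransferase Setdb1, and many of these proteins silence retroelements. KRAB genes lie in tandem clusters that arose by duplication. A SCAN domain lets other members form dimers. Zfp276 belongs to neither subfamily, as its N-terminus holds a zinc finger-associated domain (ZAD), a type of domain best known from insect zinc finger proteins. In oligodendrocytes (OLs), Zfp24 is known as a gene needed for central myelination.

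The coding sequences of all 5 fingers of Zfp276 are shown because the protein loses them with the deletion. According to the paper, recombination brings a frameshift and an early stop. At most a short N-terminal product without the ZAD and the fingers could remain. As a reference for the family, 2 fingers each are shown of Zfp612 and Zfp652, members from either side of the genotype comparison. All sequences were read from the GENCODE vM21 transcripts of mm10, 5′ to 3′ on the coding strand, which is the plus strand for all 3 genes. Capitals mark the codons of the cysteines and histidines that hold the zinc ion. Each sequence runs on for the 5 codons after the finger, the place of the linker to the next finger, and the coordinates are those of the finger.
Zfp276 finger 1, chr8:123265020-123265334: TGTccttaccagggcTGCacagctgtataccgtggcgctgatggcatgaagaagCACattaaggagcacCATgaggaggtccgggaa
Zfp276 finger 2, chr8:123265356-123265427: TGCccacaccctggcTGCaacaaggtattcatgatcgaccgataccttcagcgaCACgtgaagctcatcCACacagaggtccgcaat
Zfp276 finger 3, chr8:123267617-123267679: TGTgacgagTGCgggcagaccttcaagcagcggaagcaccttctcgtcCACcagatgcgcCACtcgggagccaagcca
Zfp276 finger 4, chr8:123267771-123267833: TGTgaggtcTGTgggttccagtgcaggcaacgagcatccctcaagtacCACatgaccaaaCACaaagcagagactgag
Zfp276 finger 5, chr8:123267861-123267926: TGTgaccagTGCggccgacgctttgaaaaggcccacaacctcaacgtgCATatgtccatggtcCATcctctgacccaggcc
Zfp612 finger 3, chr8:110089009-110089071: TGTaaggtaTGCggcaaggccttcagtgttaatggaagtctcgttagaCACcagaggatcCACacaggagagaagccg
Zfp612 finger 4, chr8:110089093-110089155: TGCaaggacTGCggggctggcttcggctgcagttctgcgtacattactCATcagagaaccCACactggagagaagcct
Zfp652 finger 6, chr11:95753989-95754051: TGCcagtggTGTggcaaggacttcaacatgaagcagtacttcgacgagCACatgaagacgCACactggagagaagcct
Zfp652 finger 7, chr11:95763556-95763618: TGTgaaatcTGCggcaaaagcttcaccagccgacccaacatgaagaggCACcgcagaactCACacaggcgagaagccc

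In the 4 sequences of Zfp612 and Zfp652 the last 5 codons spell threonine, glycine, glutamate, lysine and proline, the canonical linker of the family. None of the 5 sequences of Zfp276 does. The 5 fingers of Zfp276 take residues 436 to 577 of its 614 residues and are encoded by exons 8 to 11 of 11, all downstream of exons 2 to 5, which are flanked by loxP sites in the floxed allele. Finger 1 of Zfp276 is split between exons 8 and 9. In Zfp612 all 16 fingers lie in exon 5, its last, and 11 of them are followed by the canonical linker, as are 2 of the 7 fingers of Zfp652. Over the members, 270 had a translated sequence in this annotation. They held a median of 11 fingers, counted with 2 to 4 residues between the cysteines, 12 between the second cysteine and the first histidine and 3 to 5 between the histidines. The highest number was 36, in Zfp142. At least 1 canonical linker, with lysine or arginine before the proline, was found in 213 members.

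Zfp276 itself was read at 1648 and 2230 normalized counts in ctrl libraries and at 489.5 and 502.6 in Zfp276cko libraries. The groups did not overlap, and the mean in Zfp276cko was 25.6% of that in ctrl. The log2 fold change of Zfp276 was −1.97 (SE 0.18, n = 2 per genotype, 95% interval −2.45 to −1.48). Its Benjamini-Hochberg adjusted p over 15766 genes was 0.0962 in edgeR's quasi-likelihood test, above the threshold of 0.05, and with DESeq2 it was 1.21e-14. Without any one library the log2 fold change stayed between −2.17 and −1.74. Without ctrl replicate 1 or ctrl replicate 2 the edgeR adjusted p was 2.96e-11 or 5.08e-10, in fits whose spread comes from the close Zfp276cko pair alone. The counts cover the whole gene, chr8:123254195-123269745, so reads from the exons that remain after recombination are included. Of its 101-base windows, 9.73% lie where Fanca or Vps9d1 is annotated on the opposite strand. The strand setting of the counting is not given in the sources used here, so such reads cannot be told apart.

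Per kilobase of exon, members differed widely in level. Averaged over the 4 libraries, normalized counts per kilobase ran from 22.8 to 1130 with a median of 114, against a median of 218 over all genes with at least 100 counts in every library. The 8 highest members on this scale were Zfp740 (1130), Zfp207 (886), Zfp664 (826), Zfp445 (806), Zfp146 (722), Zfp24 (706), Zfp106 (669) and Zfp706 (655). Of these, 5 carry 4 fingers or fewer, with 2 matches each in Zfp740 and Zfp207, 3 in Zfp106, 4 in Zfp24 and 1 in Zfp706. Zfp445, a KRAB and SCAN protein known to maintain imprints, is the only one of the 8 with a KRAB match. Zfp276 ranked 23rd of 272 in ctrl libraries, at 351 counts per kilobase, and 179th in Zfp276cko libraries, at 89.7. The rank is by genotype mean, and the ctrl libraries of Zfp276 themselves were 0.44 apart on the log2 scale.

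**Figure D1:**
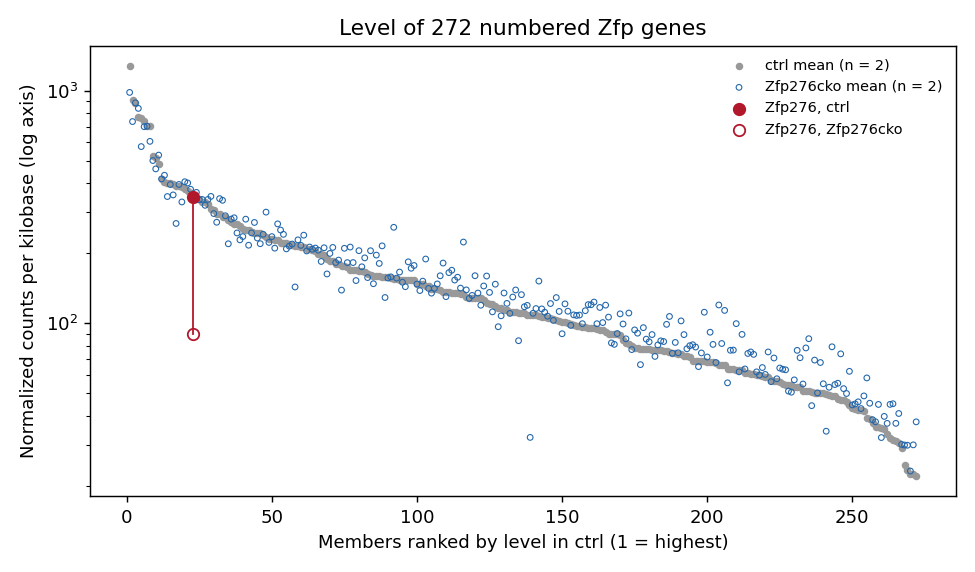
Level of each of the 272 members, in normalized counts per kilobase of exon on a log axis, against its rank in ctrl libraries. Grey points are ctrl means and open blue circles Zfp276cko means (n = 2 each), and the red pair joined by a line is Zfp276, at 351 in ctrl and 89.7 in Zfp276cko.

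The limit of 100 counts was read on raw counts, and what it chose on is given only as a description. Just inside it were Zfp69 (lowest library 100 counts), Zfp108 (101) and Zfp438 (104). Just outside were Zfp429 (95), Zfp976 (93) and Zfp72 (91). A limit on every library removes genes that are low in 1 genotype. In what follows, a gene is said to lie above ctrl where even its lower Zfp276cko library exceeded its higher ctrl library, and below ctrl in the opposite case. With a mean of at least 100 counts instead, 290 genes would be members. Of the 18 added, 14 lay above ctrl, among them Zfp941 with raw counts of 49, 54, 160 and 200 and Zfp984 with raw counts of 67, 104, 222 and 286, ctrl libraries first. The other 4 of the 18, Zfp786, Zfp764, Zfp429 and Zfp52, overlapped between genotypes. That 14 lay above ctrl is partly set by the rule and is not set against the 26.8% of all tested genes. A gene below 100 counts in some library reaches the mean through its higher libraries. The Zfp276cko libraries also held more counts in total, 25265366 and 26599809 against 21311469 and 21068322 in ctrl. Counts of members below leave out part of the weakly read genes that were higher in Zfp276cko.

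Between genotypes, the members as a group lay slightly above zero, with few large differences. Their median log2 fold change, Zfp276cko over ctrl, was 0.10 (middle 50% of members from −0.01 to 0.25), beside 0.00 over all 15766 tested genes and −0.03 over the 11023 genes with at least 100 counts in every library. A positive log2 fold change was found in 198 of 272 members (72.8%) and a negative one in the other 74. Over all tested genes 49.9% were positive and 50.1% negative, and over genes with at least 100 counts in every library 45.1% and 54.9%. The latter genes share the count limit but were read more deeply, with a median of 1046 normalized counts against 545.3 for members. They are thus not matched to the members in depth. The difference was below 0.3 on the log2 scale, in either direction, in 207 members, at least 0.6 in 13 and at least 1 in 2, Zfp276 and Zfp469. Zfp276 had the largest difference of all members. The median of the members exceeded that of genes with at least 100 counts in every library by 0.13, and by 0.11 to 0.17 when a library was left out. With a limit of 300 counts in place of 100, the 164 members left had a median of 0.06 and 65.9% positive values. Between the ctrl replicates, the median member was 0.08 lower in replicate 1 than in replicate 2 on the same scale. The median level of the members was 496.3 and 521 normalized counts in ctrl libraries and 561.9 and 583.8 in Zfp276cko libraries.

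With edgeR's quasi-likelihood test no member was called at an adjusted p of at most 0.05, a log2 fold change of at least 0.6 in either direction and a mean of at least 20 normalized counts, and neither was any other gene (background 0%). At an unadjusted p of 0.05 without further thresholds, 7 members (2.57%) were lower. The background was 7.3% of all tested genes and 9.15% of those with at least 100 counts in every library. At the same p 15 members (5.51%) were higher, with backgrounds of 8.33% and 7.08%. With both other thresholds these counts were 2 lower, Zfp276 and Zfp469 (backgrounds 3.02% and 3.41%), and 8 higher (5.11% and 3.64%), namely Zfp184, Zfp217, Zfp521, Zfp612, Zfp709, Zfp839, Zfp945 and Zfp994. DESeq2 with the same thresholds called 2 members lower, again Zfp276 and Zfp469 (2.21% and 2.75%), and 3 higher, Zfp521, Zfp612 and Zfp945 (2.92% and 2.67%). By none of these counts was the share of members above the background. With limma voom 0 members were called. The edgeR fit without ctrl replicate 1 called 4 members lower and 15 higher, and that without ctrl replicate 2 called 5 and 17, since the spread was then taken from the Zfp276cko pair alone. Above ctrl without overlap lay 115 members (42.3%, background 26.8%) and below ctrl 28 (10.3%, background 23.7%). Over genes with at least 100 counts in every library these backgrounds were 23.5% and 28.6%. For a single gene, 2 against 2 libraries cannot give an exact two-sided permutation p below 0.333.

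**Figure D2:**
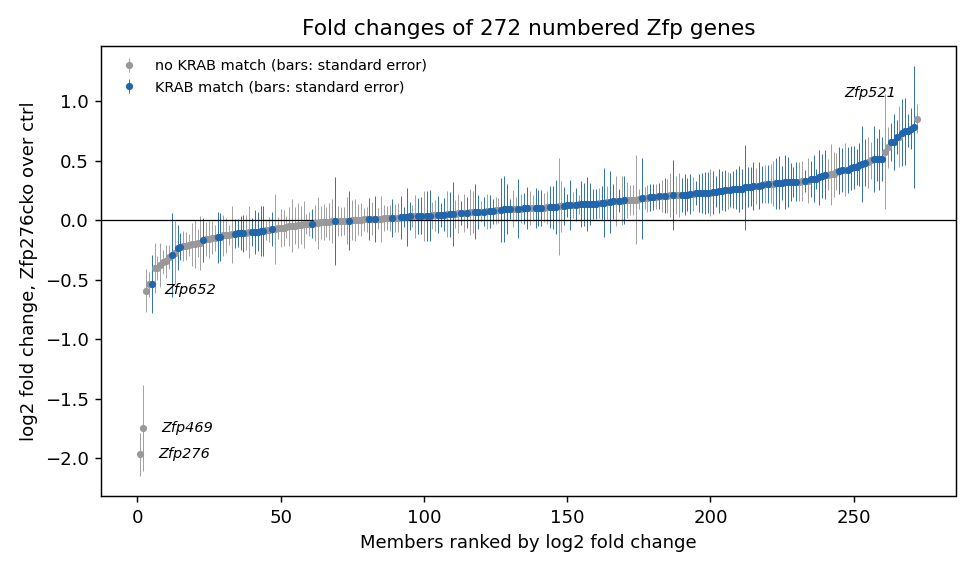
Log2 fold change (Zfp276cko over ctrl) of the 272 members in rank order, with standard errors from edgeR's fit as bars. Blue points have a KRAB match and grey points have none, and Zfp276 at −1.97 and Zfp469 at −1.74 stand apart from Zfp652, the next lowest at −0.59.

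Zfp469, a gene known from collagen-rich tissue such as the cornea, was the other member with a large difference. It had 433.4 and 234.1 normalized counts in ctrl libraries and 95.9 and 103 in Zfp276cko libraries. The ctrl libraries were 0.89 apart on the log2 scale, and the gene lay below ctrl. Its log2 fold change was −1.74 (SE 0.36, n = 2 per genotype), with an adjusted p of 0.178 by edgeR and 0.00114 by DESeq2, and it ranged from −2.13 to −1.23 when a library was left out. The annotation gives Zfp469, at chr8:122269569-122272650, as a long noncoding RNA with no translated sequence, so its fingers were not counted. Markers of fibroblasts and mural cells were uneven in the same libraries, with 1 of 6, Vtn, too low to be tested. Their summed level was 5627 in ctrl replicate 1 and between 138.4 and 187.3 in the other 3 libraries. Without ctrl replicate 1 the log2 fold change of Zfp469 was −1.23, smaller than with it, and the part of the marked cells in the value was not tested. Zfp469 is also the member nearest to Zfp276, 981.5 kb away. The 44 tested genes within 1000000 bases of Zfp276 had a median log2 fold change of 0.02, with 23 positive values, and ran down to −2.28. Of these, 15 (34.1%) lay below ctrl, against 23.7% of all tested genes, and 12 (27.3%) above, against 26.8%. DESeq2 called Zfp469, Zfpm1 and Mvd lower and Piezo1 and Galns higher among these 44, genes named here after their values were seen. Over all genes with an adjusted p it called 2.21% lower and 2.92% higher.

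The other 6 of the 8 lowest members stayed within 0.6 on the log2 scale, and none was called by edgeR or DESeq2. Zfp652, a transcriptional repressor that works with CBFA2T3, had 3860 and 2804 normalized counts in ctrl and 2215 and 2211 in Zfp276cko libraries. Its log2 fold change was −0.59 (SE 0.18, edgeR adjusted p = 0.261), and it ranged from −0.81 to −0.34 without single libraries. Zfp652 is among 14 members in which at least 10% of windows lie over other annotated genes, including an antisense gene. Those 14 had a median log2 fold change of 0.08. As the strand setting of the counting is not given, reads from such genes cannot be told apart. Zfp579 gave 1536 and 1709 in ctrl and 1162 and 1074 in Zfp276cko libraries, a log2 fold change of −0.54 (SE 0.11). DESeq2 gave Zfp579 an adjusted p of 0.0298, but its fold did not reach the threshold. For Zfp69, a KRAB gene known from diabetes in mice, the log2 fold change was −0.53. It was −0.40 both for Zfp106, an RNA-binding protein of motor neurons, and for Zfp318, known for IgD expression in B cells, and −0.37 for Zfp740. All 8 of the lowest members lay below ctrl. That is partly set by their choice for low fold changes and is not set against the 23.7% of all tested genes. The ctrl libraries of Zfp106, at 9437 and 6450, were further from each other than the lower of them was from the Zfp276cko libraries, at 5945 and 6062. Zfp740 showed the same with 5443 and 7534 in ctrl against 5018 and 5007, and so did Zfp652 with the values above.

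Of the 8 highest members, Zfp521 came first. Zfp521 is a cofactor with many fingers (27 matches) that binds Ebf transcription factors and is known from neural progenitors. It had 464.2 and 468.1 normalized counts in ctrl and 881.3 and 805 in Zfp276cko libraries. The replicates of each genotype were close, and the log2 fold change was 0.85 (SE 0.12, edgeR adjusted p = 0.123, DESeq2 adjusted p = 6.52e-04). Zfp423, its closest relative, also with 27 matches, gave 452.4 and 312.8 in ctrl and 525.7 and 500.9 in Zfp276cko libraries, a log2 fold change of 0.42 (SE 0.22, edgeR adjusted p = 0.445).

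Among members with a KRAB match, Zfp612 (chr8:110079746-110092741) had 301.6 and 318.5 normalized counts in ctrl and 537.5 and 506.9 in Zfp276cko libraries. Its log2 fold change was 0.75 (SE 0.14, edgeR adjusted p = 0.161, DESeq2 adjusted p = 0.0142). Zfp945 (chr17:22846697-22867134) had 489.2 and 504.1 against 736.6 and 875.5, a log2 fold change of 0.70 (SE 0.14, edgeR adjusted p = 0.172, DESeq2 adjusted p = 0.0274). These 2 KRAB genes and Zfp521 are the members that DESeq2 called higher. Zfp709 had tight replicates as well, with 176.9 and 174.4 against 281.4 and 317.9, but its DESeq2 adjusted p of 0.0695 missed the threshold.

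The others of the 8 highest rested on uneven ctrl libraries. Zfp57, which maintains imprints together with Zfp445, had 133 and 366.8 normalized counts in ctrl and 447 and 413.3 in Zfp276cko libraries. Its log2 fold change of 0.78 (SE 0.51) ranged from 0.23, with ctrl replicate 2 as the only ctrl library, to 1.68, with ctrl replicate 1 alone. Zfp811 had 351.4 and 595.3 in ctrl against 773.7 and 816.2, and Zfp958 had 458.3 and 275.7 against 612.6 and 610.9. Zfp217, a partner of the CoREST corepressor, had 515.3 and 326.3 against 685.9 and 684.7, a log2 fold change of 0.70 (SE 0.25). In all 4 the libraries of the genotypes did not overlap, which is partly set by their choice for high fold changes. Leaving out 1 ctrl library moved the fold change of each by a large part of its size.

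**Figure D3:**
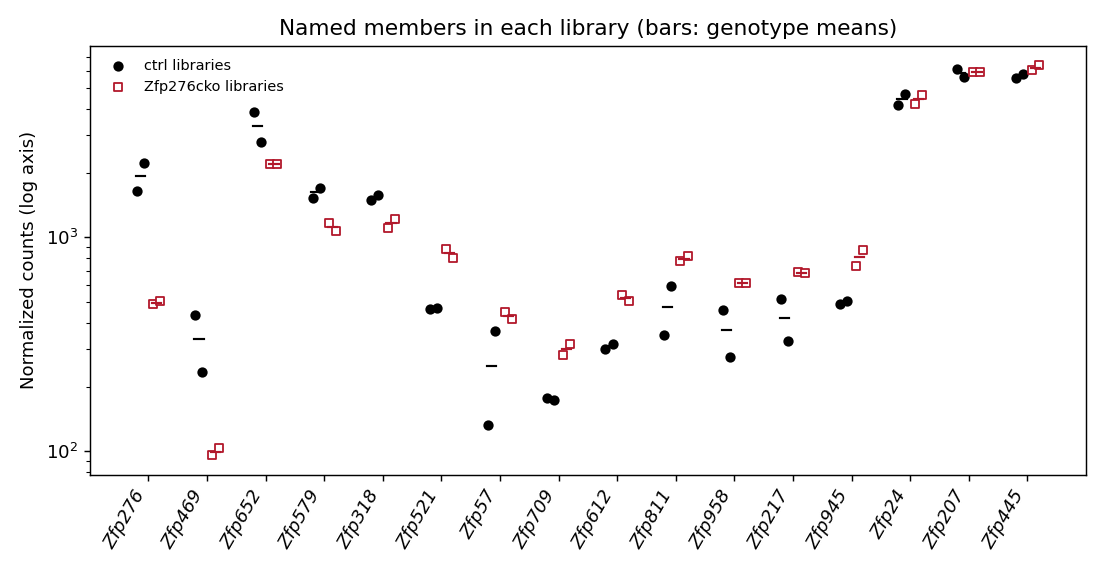
Normalized counts of 16 named members in each library on a log axis, with black points for ctrl, open red squares for Zfp276cko and short bars for the genotype means. The 5 genes on the left and the 8 in the middle, chosen for low or high fold changes, do not overlap between genotypes. The ctrl replicates of Zfp57, Zfp811, Zfp958 and Zfp217 lie far apart, and Zfp24 and Zfp207 overlap.

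The members were then divided by what their proteins hold, which the rule did not use. A KRAB match, meaning at least 11 of 15 conserved residues of its A-box, was found in 140 members (51.5%) and in 213 of all 375 numbered entries (56.8%). The median log2 fold change was 0.16 in members with a KRAB match and 0.02 in the 132 members without one. Positive values were found in 120 of 140 (85.7%) and 78 of 132 (59.1%), against 45.1% of genes with at least 100 counts in every library. Those genes were read more deeply than either class, with a median of 1046 normalized counts. Of the KRAB members, 76 (54.3%) lay above ctrl and 6 (4.29%) below, and of the others 39 (29.5%) and 22 (16.7%). The 6 KRAB members below ctrl were Zfp251, Zfp472, Zfp61, Zfp69, Zfp777 and Zfp952. No test was made of this difference, as members are not replicates. Without any one library the median of KRAB members stayed between 0.14 and 0.21, whereas that of the others ranged from −0.02, without ctrl replicate 1, to 0.10, without ctrl replicate 2.

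KRAB members were read less deeply, with a median of 415.4 normalized counts against 768.9. In the lowest, middle and highest tertile of mean count, the median log2 fold change of KRAB members was 0.21, 0.17 and 0.12. In the same tertiles it was 0.12, 0.07 and 0.00 in members without a KRAB match. KRAB members thus had the higher median within each tertile, and both medians were lowest among the genes read most deeply. The tertiles did not match the classes in depth. Median counts of KRAB members were 234.3, 526.3 and 1040 from the lowest to the highest tertile, against 264.5, 562.6 and 1505 for the others. In the middle tertile the medians of log2 fold change came as close as 0.18 and 0.15 without ctrl replicate 2. In the highest tertile 26 of 27 KRAB members had a positive value, against 33 of 65 of the others. The number of fingers gave a similar order: the median was 0.00 in the 36 members with 1 to 4 fingers, 0.06 in the 74 with 5 to 9, 0.13 in the 97 with 10 to 14 and 0.19 in the 58 with 15 or more. Fingers and KRAB are not separate measures, since KRAB proteins tend to have long finger arrays. Of the smaller classes, 10 members with a SCAN match alone had a median of 0.12 and the 3 with both matches 0.12.

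By position, 117 members lay in 15 clusters of at least 4 members with gaps of at most 500000 bases. The largest was the cluster on chromosome 17 from Zfp160 to Zfp13, chr17:21008903-23599487, with 17 members, 15 of them with a KRAB match. All 17 had a positive log2 fold change, from 0.03 to 0.70 with a median of 0.31, and 12 lay above ctrl. Of all members with a KRAB match, wherever they lie, 85.7% were positive and 54.3% lay above ctrl. Over genes with at least 100 counts in every library these shares were 45.1% and 23.5%. Zfp945 and Zfp994, at 0.70 and 0.66, were its highest members, and Zfp943, with 616.2 and 420.9 in ctrl and 481.4 and 575.6 in Zfp276cko libraries, its lowest. In the cluster on chromosome 7 from Zfp60 to Zfp36 all 6 members lay above ctrl, with a median of 0.31. Zfp60, the most deeply read of them, had 2023 and 1939 normalized counts in ctrl and 2516 and 2531 in Zfp276cko libraries. The cluster from Zfp759 to Zfp273 on chromosome 13 holds KRAB genes alone and had a median of 0.18 over 10 members. Above ctrl lay 6 of them, near the share of all KRAB members. The only cluster with a negative median, −0.04, was that from Zfp628 to Zfp580 on chromosome 7, whose 4 members have no KRAB match and include Zfp579. Genes of a cluster are related in sequence, and in 7 members, Zfp59, Zfp617, Zfp747, Zfp825, Zfp932, Zfp970 and Zfp971, over 10% of the 101-base windows also occur in another gene. Their counts are less certain, as uniquely mapped reads cannot cover such windows. The other 265 members had a median log2 fold change of 0.10, as had all 272.

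**Figure D4:**
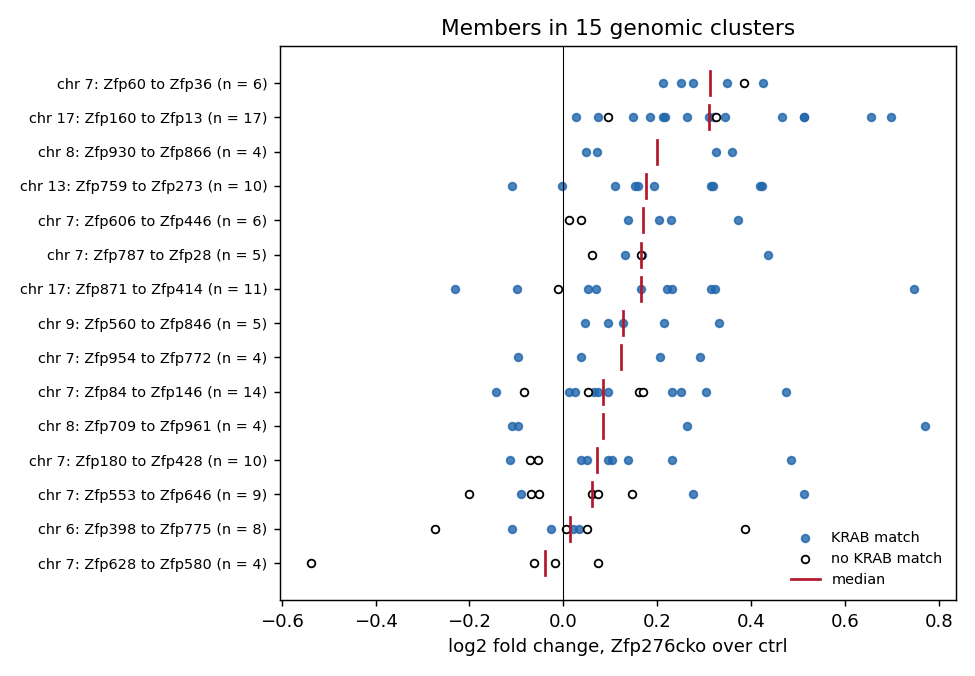
Log2 fold change (Zfp276cko over ctrl) of the 117 members in 15 genomic clusters, with filled blue points for a KRAB match, open points for none and a red bar for the median of a cluster. All points of the top pair of clusters, on chromosomes 7 and 17 with medians of 0.31, lie right of zero, and the lowest cluster has a median of −0.04.

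Several members with known roles differed little between genotypes. Zfp24 had 4178 and 4698 normalized counts in ctrl and 4198 and 4638 in Zfp276cko libraries, a log2 fold change of −0.01 with a 95% interval of −0.32 to 0.31. Zfp207, a kinetochore and splicing factor also called BuGZ, gave 0.01 (−0.27 to 0.29), and the imprint factor Zfp445 0.12 (−0.14 to 0.39). Without any one library Zfp445 stayed positive, between 0.09 and 0.16. The intervals leave room for differences of that size, so equal levels were not shown. Zfp809, which silences retroviruses in stem cells, had 619.8 and 548 against 616.2 and 634.9, and Zfp568, a KRAB repressor of placental Igf2, 279 and 342.1 against 314 and 317.9. Zfp462, with 33 fingers and a role in heterochromatin, had ctrl libraries of 2597 and 3953 that enclosed the 3144 and 3203 of Zfp276cko libraries. The ctrl libraries of Zfp746 (also called PARIS) and of Zfp292 enclosed their Zfp276cko libraries in the same way.

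Of the general promoter-binding factors, Zfp143 had a log2 fold change of −0.08, Zfp148 of −0.15 and Zfp281 of 0.10, each with an SE of 0.10 to 0.11. Zfp91, a ubiquitin ligase, gave −0.19, Zfp335, a factor of neural progenitors, −0.10, and Zfp609 0.03. No C2H2 match by the pattern used was found in 5 members, among them Zfp36, which binds AU-rich mRNAs through fingers of the CCCH type. Zfp36 had 331.3 and 516.5 normalized counts in ctrl and 523.9 and 584.2 in Zfp276cko libraries, with a log2 fold change of 0.39 (SE 0.26). Zfp703, a corepressor with an atypical finger, gave 0.29 and Zfp839 0.61. None of these genes was called by edgeR or DESeq2.

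Related genes with other names were read alongside. All 12 Zkscan genes, which combine KRAB and SCAN domains, were tested, with a median log2 fold change of 0.17 and 11 positive values. For 10 of 18 Zscan genes the median was 0.15 with 9 positive values, and for 38 of 40 Zbtb genes, which carry a BTB domain, it was 0.03 with 21 positive values. Of the genes of the machinery that KRAB proteins and Zeb2 work with, 26 of 27 were tested, with a median of −0.10 and 8 positive values. Below ctrl lay 9 of them (34.6%) and above ctrl 5 (19.2%), near the 28.6% and 23.5% of genes with at least 100 counts in every library. Trim28 gave 6658 and 7992 in ctrl and 6853 and 6332 in Zfp276cko libraries, and Setdb1 2801 and 2655 against 2642 and 2635. DESeq2 called 1 gene of these 4 lists, Zkscan7, which had 331.3 and 473.8 normalized counts in ctrl and 723.9 and 729.4 in Zfp276cko libraries (log2 fold change 0.85, SE 0.21, DESeq2 adjusted p = 0.0338, edgeR adjusted p = 0.207).

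Markers of cell types and of the interferon response also differed between libraries, and their part in the values above was not tested. The 8 oligodendrocyte markers had a median log2 fold change of −0.87, and all but Sox10 lay below ctrl without overlap. The 8 genes of the interferon response had a median of 4.21 and all lay above ctrl. The 4 markers of oligodendrocyte precursors (OPCs) had a median of −0.42, from −1.12 for Gpr17 to −0.13 for Pdgfra, which overlapped between genotypes. The 6 astrocyte markers had a median of 0.17 and did not move together. They ran from −0.50 for Aldoc, below ctrl, to 0.88 for Aldh1l1, above ctrl, and the other astrocyte markers overlapped. In 4 of the 6 the ctrl replicates were at least 1 apart on the log2 scale. The summed level of the 8 microglia markers was 34120 in ctrl replicate 1 and between 16770 and 23050 in the other 3 libraries. Of the 5 neuronal markers, Rbfox3, Snap25, Syt1 and Tubb3 were lowest in ctrl replicate 1 and highest in ctrl replicate 2, with 33.2 and 874.4 for Syt1 against 342 and 351.4 in Zfp276cko libraries. Their sum, 15750 and 22550 in ctrl and 14360 and 15700 in Zfp276cko libraries, is mostly Map2. Replicates of ctrl were further apart than those of Zfp276cko, with a biological coefficient of variation of 0.357 against 0.048, and the members showed the same. Their replicates were a median of 0.21 apart on the log2 scale in ctrl and 0.08 in Zfp276cko. A gap of at least 1 was found in ctrl in 3 members, Zfp57, Zfp326 and Zfp618, and in Zfp276cko in none. Zfp618 had 201.8 and 527.8 normalized counts in ctrl and 528.4 and 560.2 in Zfp276cko libraries, and Zfp326 had 1649 and 3694 against 2756 and 3039, so that neither genotype difference exceeded the spread of ctrl.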

How the data were processed

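Total RNA of 4 cultures was sequenced as single 101-base reads after stranded mRNA library preparation. Reads were aligned to mm10 by STAR 2.5.4a, and the authors deposited raw counts per gene, neither normalized nor filtered. The methods name HTSeq and the submitters' processing notes featureCounts 1.5.1 for counting, and the strand setting is not given in the sources used here. The counts summed to 21311469 and 21068322 (ctrl) and to 25265366 and 26599809 (Zfp276cko).

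All genes were fitted together with edgeR 4.0.16 in R 4.3.3 (filterByExpr, TMM, glmQLFit and glmQLFTest, Benjamini-Hochberg over 15766 genes), with genotype as the only term. Alternatives were DESeq2 1.42.0 (which the authors used), limma voom 3.58.1, size factors, no filter, a replicate block, a minimum of 10 counts in each library, a limit of 300 counts or a mean of 100 for members, and leaving out each library. Scaling by total counts and leaving out members with shared windows were chosen after seeing the data. The fits were run on simulated counts that had the same small spread in all libraries. In the data the biological coefficient of variation was 0.357 in ctrl and 0.048 in Zfp276cko. That run therefore says nothing about calls under so uneven a spread. Replicate numbers did not pair libraries (correlation of deviations −0.00426).

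Symbols were matched to GENCODE vM21 for positions, exon lengths and translated transcripts, and all 272 members had a position. KRAB and SCAN matches score conserved residues (11 of 15 and 14 of 24 needed) and are descriptions. The genes named are Zfp276, the 8 members lowest and the 8 highest in log2 fold change, the 8 highest per kilobase, 3 on each side of the count limit, members called by either tool and members with a known role. Zfp142, Zfp326, Zfp618, Zfp60, Zfp839, Zfp943, Zfp994, Zkscan7, genes named as parts of counts and cluster ends were chosen after their values were seen. Members and lists were chosen with earlier results of these data known.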

Additional observations from a re-analysis of the deposited data

How the results depend on the processing

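Over the fits run the median log2 fold change of the members was positive, and over the same 272 members it exceeded that of genes with at least 100 counts in every library by 0.11 (without ctrl replicate 1) to 0.17 (without ctrl replicate 2). It was 0.10 with TMM and 0.20 with total counts, a scaling that moved the median of all tested genes from 0.00 to 0.10 and left 13 members with both Zfp276cko libraries below ctrl. A fit with the replicate block called 0 genes. DESeq2 called 338 genes lower and 447 higher, of which 2 and 3 were members, and gave Zfp276 −1.98. Without a filter 8 genes were called higher, and with total counts 1 was. With a limit of 300 counts the median of the members was 0.06 and 65.9% of values were positive, 1 member was lower and 2 were higher at an unadjusted p, and 56 lay above ctrl.

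Leaving out a library leaves a genotype with 1 library, assumed to vary like the other pair. Calls over all genes then ranged from 0 to 1253 lower and from 0 to 1799 higher, and at an unadjusted p from 192 to 1294 and from 315 to 1898. Among members 0 to 5 were called lower and 0 to 17 higher, and at an unadjusted p 2 to 5 and 1 to 17. The high counts came without a ctrl library (951 lower and 1693 higher without ctrl replicate 1, 1253 and 1799 without ctrl replicate 2). Members below ctrl ranged from 35 to 85 and those above from 127 to 182, since fewer libraries overlap less often by construction. Zfp276 ranged from −2.17 to −1.74.

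Values near zero of single members, and of Zfp429 just outside the limit, changed sign. With total counts these were Zfp146 (0.0154), Zfp24 (0.0894), Zfp143 (0.0198) and Zfp462 (0.0439). With size factors they were Zfp207 (−0.0066) and Zfp746 (−0.0077), and with DESeq2 Zfp207 (−0.0085) and Zfp746 (−0.0093). Zfp24 gave 0.0174 without a filter and 0.0056 with at least 10 counts. Over the fits without 1 library, Zfp207 ranged from −0.0708 to 0.0798, Zfp24 from −0.0881 to 0.0692, Zfp429 from −0.10 to 0.25, Zfp568 from −0.11 to 0.17, Zfp462 from −0.32 to 0.28, Zfp746 from −0.12 to 0.13, Zfp335 from −0.26 to 0.0619, Zfp609 from −0.0145 to 0.073 and Zfp292 from −0.10 to 0.14. The cause was not tested. With 2 libraries per genotype and uneven ctrl libraries, differences under 0.6 in single members were rarely told from the spread.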
